A study of Homo sapiens with 6 samples.

Results

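Integrins are the receptors by which cells hold on to the extracellular matrix, and each one is built from an alpha chain and a beta chain that pair in fixed combinations. The beta tail recruits talin, kindlin and the actin-linked proteins of focal adhesions, while ITGB4, whose tail is much longer, joins keratin filaments in hemidesmosomes. In lung carcinoma cells these receptors are known for their part in attachment, migration and the activation of latent TGF-beta. The 10 subunits described here, ITGA2, ITGA3, ITGA5, ITGA6, ITGAV, ITGB1, ITGB3, ITGB4, ITGB5 and ITGB8, were taken from the deposited gene table by symbol. They are 10 of its 26025 genes, and all 10 passed the filter on low values.

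The RNA came from NCI-H1299, a human line established from a non-small cell carcinoma of the lung, in 2 groups of 3 libraries. NE cells received 10 µM norepinephrine, the adrenergic transmitter of the stress response, for 48 h, and Ctrl cells received vehicle over the same 48 h. Titles name the vehicle as DMSO and the protocol names it as PBS. Both groups had first been held in DMEM and were then kept in RPMI medium with reduced serum. No label says that the replicates were separate cultures, so the p-values measure the spread between these libraries, which may be technical. Each library held 16852751 to 17979206 reads on genes. In RNA from whole cultures, fewer cells of a kind and less RNA per cell cannot be told apart.

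The labelled line was checked against marker genes. The epithelial keratins KRT8 and KRT18 were abundant at 5232 to 24941 normalized counts and all 3 tested epithelial markers (KRT8, KRT18 and KRT7) fell with NE (KRT7 at an adjusted p of 0.0522 after GC correction, limma), whereas EPCAM and CDH1 stayed under 5 counts. The mesenchymal filament gene VIM was at 45300 to 78252 and fell by 0.38 on the log2 scale (adjusted p 0.0462, limma). It did not pass after GC correction (adjusted p 0.374) or without Ctrl replicate 3 (adjusted p 0.0603). The mesenchymal markers CDH2 (log2 difference 0.64, adjusted p 0.00172, but 0.131 after GC correction) and FN1 (0.77, adjusted p 0.000458) rose, so the mesenchymal markers were mixed. The leukocyte markers in the table were at 0 to 6.28 counts. Of the endothelial, fibroblast and platelet markers none exceeded 37 counts, and COL1A1 was the 1 that passed the test, though not after GC correction.

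Ctrl replicate 3 stood apart from the other controls. The chi-square of its counts against Ctrl replicates 1 and 2 was 49.5 and 45.4 per gene, where those replicates differed from each other by 2.86 and the NE libraries by 5.37 to 24.3. It also had 7305 genes at 0 reads against 4829 and 4833. Base composition moved with the treatment as well. The log2 difference between NE and Ctrl had a Spearman correlation of -0.644 with the GC content of the exons over 14955 genes of the same 6 libraries, and its median went from 0.66 in the fifth of genes with the lowest GC to -0.66 in the fifth with the highest. Ctrl replicate 3 against the other controls had the same slope, from 0.39 to -0.33. For the genes named below, the value after removal of each library's GC trend, or without Ctrl replicate 3, is given where it changed the call.

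The promoters were examined because the study follows norepinephrine through the beta-adrenergic, PKA and CREB pathway. RefSeq promoter windows (GRCh38.p14, 250 bases before to 50 after a start) were at hand for 7 of the 10 subunits, as 12 windows. Both strands were searched for the cAMP response element TGACGTCA, its half-site TGACG (which lies within the full element), the AP-1 site TGANTCA and the GC box GGGCGG. None of the 12 windows held the full element, which 1.85% of 35116 windows held. The half-site was in 3 of the 12 windows, those of ITGA6 and ITGB1 (24.6% of all windows). The AP-1 site was in 1 window, that of ITGA5 (7.71% of all windows), and the GC box in 9 windows of 6 subunits (45.0% of all windows). The matches are descriptions of letters and say nothing about binding. Whether a match goes with a direction of change was not tested. The stretches that carry a half-site or an AP-1 site are shown. Each runs 5′ to 3′ on the gene's strand, was trimmed where it met an annotated exon (the ITGA5 stretch keeps 1 exon base that belongs to its match), and has the match in capitals.
ITGB1, chr10:32958326-32958436, minus strand: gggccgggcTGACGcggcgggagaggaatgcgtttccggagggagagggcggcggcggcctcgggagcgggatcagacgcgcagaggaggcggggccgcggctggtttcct
ITGA5, chr12:54419266-54419516, minus strand: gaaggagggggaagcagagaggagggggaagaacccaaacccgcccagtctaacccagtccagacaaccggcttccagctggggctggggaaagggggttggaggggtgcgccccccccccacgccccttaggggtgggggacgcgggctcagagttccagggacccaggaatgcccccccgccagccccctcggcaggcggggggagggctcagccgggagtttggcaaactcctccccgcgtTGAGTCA
ITGA6, first window, chr2:172427086-172427335, plus strand: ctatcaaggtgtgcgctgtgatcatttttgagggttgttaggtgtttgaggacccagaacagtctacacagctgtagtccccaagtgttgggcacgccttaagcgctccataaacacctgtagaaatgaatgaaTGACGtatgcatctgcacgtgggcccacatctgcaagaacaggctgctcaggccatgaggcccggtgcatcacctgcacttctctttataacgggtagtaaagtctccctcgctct
ITGA6, second window, chr2:172427471-172427585, plus strand: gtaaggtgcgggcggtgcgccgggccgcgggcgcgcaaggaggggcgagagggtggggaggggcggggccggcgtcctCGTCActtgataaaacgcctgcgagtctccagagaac
Counted back from the start, the first base of the match was at -197 in ITGB1, -6 in ITGA5 and -116 and -37 in ITGA6, the last of them on the other strand.

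The common beta chain ITGB1 rose, while 2 of the 5 alpha chains and 3 of the other 4 beta chains fell. Of the 10 subunits, 3 rose with NE (ITGAV, ITGB1 and ITGB8) and 5 fell (ITGA3, ITGA5, ITGB3, ITGB4 and ITGB5) at an adjusted p under 0.05, and ITGA2 and ITGA6 did not pass. Over all 15013 genes tested, 24.6% rose and 25.5% fell. The median log2 difference was -0.59 over the subunits and 0.01 over all tested genes. With a fold change of at least 2 added, 1 subunit rose (ITGB8) and 3 fell (ITGA5, ITGB3 and ITGB4), against 7.47% and 6.55% of all genes. The share of subunits past the test was 8 of 10, in a table where about every other gene passed.

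**Figure D1:**
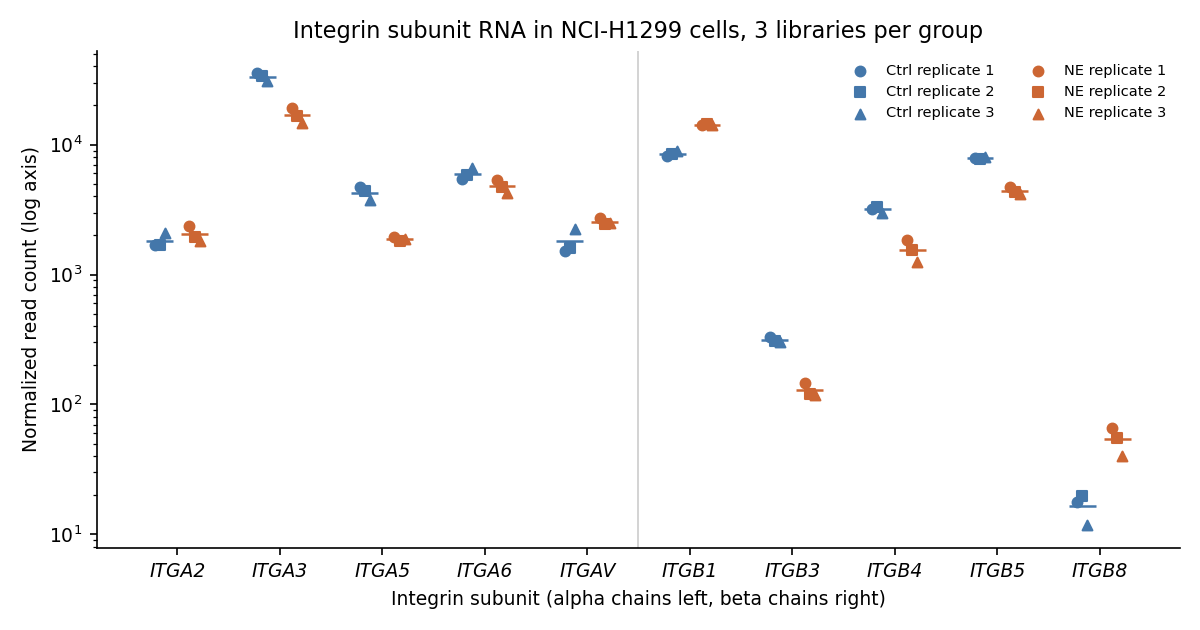
Normalized read counts (log axis) of the 5 alpha and 5 beta subunits in the 3 Ctrl and 3 NE libraries, with 1 symbol per replicate and a bar at each group mean. ITGAV, ITGB1 and ITGB8 sit higher in every NE library than in every Ctrl library, 6 subunits including ITGA6 sit lower, and ITGA2 is the 1 subunit whose groups overlap. Of all 15013 tested genes, 4458 were likewise apart and higher in NE, and 4342 apart and lower.

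ITGB1 (ENSG00000150093, chr10:32887273-33005792, minus strand, hg38) is the beta chain that pairs with ITGA2, ITGA3, ITGA5, ITGA6 and ITGAV, and so serves collagen, laminin and fibronectin receptors alike. It had 8140, 8459.7 and 8857 normalized counts in Ctrl replicates 1 to 3 and 14160.1, 14409.7 and 14111 in the NE libraries. All 3 NE libraries lay far above the controls and within 300 counts of each other. On the log2 scale NE exceeded Ctrl by 0.75 (SE 0.089, adjusted p 0.000288, limma). The difference was 0.31 after GC correction, still past the test (adjusted p 0.0222).

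ITGAV (ENSG00000138448, chr2:186590010-186680901, plus strand) is the alpha chain of the RGD-binding receptors, which recognise vitronectin, fibronectin and latent TGF-beta. Its counts were 1529, 1606 and 2249.9 in Ctrl and 2745, 2432 and 2482 in NE. The groups did not overlap, yet Ctrl replicate 3 lay closer to the NE libraries than to the other controls. The log2 difference was 0.53 (SE 0.15, adjusted p 0.0167, limma), and 0.70 without Ctrl replicate 3. The call was lost without Ctrl replicate 1, Ctrl replicate 2 or NE replicate 1 (adjusted p 0.0616 to 0.0700), and GC correction turned the difference to -0.15 (adjusted p 0.175).

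ITGB8 (ENSG00000105855, chr7:20330702-20415754, plus strand) pairs with ITGAV to hold and activate latent TGF-beta. It was the scarcest of the 10, at 17.8, 19.7 and 11.8 counts in Ctrl and 66.2, 55.2 and 40.2 in NE. Every NE library held more than any control. This was the largest rise among the subunits, with a log2 difference of 1.66 (SE 0.34, adjusted p 0.00336, limma). After GC correction it was 1.07 and no longer past the test (adjusted p 0.0606).

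The laminin receptors ITGA3 and ITGA6 differed in how they moved. ITGA3 (ENSG00000005884, chr17:50055968-50090481, plus strand), whose receptor with ITGB1 binds laminin-332, had the most reads of all 10, at 35331, 33596 and 30720.1 in Ctrl and 19272, 16554 and 14763 in NE. No NE library reached the level of a control. Its log2 difference was -0.98 (SE 0.12, adjusted p 0.000316, limma) and -0.46 after GC correction (adjusted p 0.0186).

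ITGA6 (ENSG00000091409, chr2:172427354-172506459, plus strand), the laminin-binding chain that pairs with ITGB1 or ITGB4, had 5458, 5808 and 6627 counts in Ctrl and 5384, 4705 and 4245 in NE. The highest NE library was just under the lowest control. The log2 difference was -0.32 (SE 0.12, 95% interval -0.59 to -0.05, adjusted p 0.0506, limma), which missed the threshold. It passed in 9 of 17 alternative analyses, among them GC correction with -0.72 (adjusted p 0.000514) and the fits without Ctrl replicate 3 (adjusted p 0.0434) or NE replicate 1 (adjusted p 0.0311), while quantile normalization gave -0.09 (adjusted p 0.570).

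ITGA5 (ENSG00000161638, chr12:54395261-54419266, minus strand) is the alpha chain of the main fibronectin receptor. It had 4677, 4369.9 and 3728 counts in Ctrl and 1929, 1826 and 1889.7 in NE. The NE libraries were nearly equal and all under the lowest control. ITGA5 thus differed by -1.17 on the log2 scale (SE 0.11, adjusted p 0.000114, limma), and by -0.71 after GC correction (adjusted p 0.000229).

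ITGA2 (ENSG00000164171, chr5:52989340-53094779, plus strand), the collagen-binding chain, had 1699.6, 1683 and 2072 counts in Ctrl and 2345, 1959 and 1800.2 in NE. Ctrl replicate 3 lay above the lower NE libraries, so that the groups overlapped. A log2 difference of 0.16 (SE 0.13, 95% interval -0.14 to 0.46, adjusted p 0.342, limma) was found. Its sign depended on the processing, since it was 0.26 without Ctrl replicate 3 (adjusted p 0.0461) and -0.37 after GC correction (adjusted p 0.0153).

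The remaining beta chains, ITGB5, ITGB3 and ITGB4, fell. ITGB5 (ENSG00000082781, chr3:124761948-124901418, minus strand), a vitronectin-binding partner of ITGAV, had 7918, 7787 and 8015 counts in Ctrl and 4677, 4289.6 and 4183 in NE. Its controls lay within 300 counts of each other, Ctrl replicate 3 included. ITGB5 had a log2 difference of -0.85 (SE 0.092, adjusted p 0.000196, limma) and -0.46 after GC correction (adjusted p 0.00699).

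ITGB3 (ENSG00000259207, chr17:47253827-47313743, plus strand), a further partner of ITGAV, was sparse at 329.9, 308 and 305 counts in Ctrl and 145, 120.1 and 119 in NE. The NE libraries held well under the lowest control. With a log2 difference of -1.29 (SE 0.15, adjusted p 0.000259, limma) it fell most of the 10, and GC correction left -1.19 (adjusted p 0.000341). Of its exon bases 33.2% are shared with ENSG00000259753 on the same strand, so how reads were assigned between them is uncertain.

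ITGB4 (ENSG00000132470, chr17:75721328-75757818, plus strand), which pairs with ITGA6 in hemidesmosomes, had 3213, 3333 and 2968 counts in Ctrl and 1837, 1531 and 1248 in NE. The NE libraries were spread more than the controls but stayed under them. The log2 difference was -1.06 (SE 0.14, adjusted p 0.000482, limma). It has the exons richest in GC of the 10 (64.0%), and after GC correction the difference was -0.40 and did not pass (adjusted p 0.0680).

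**Figure D2:**
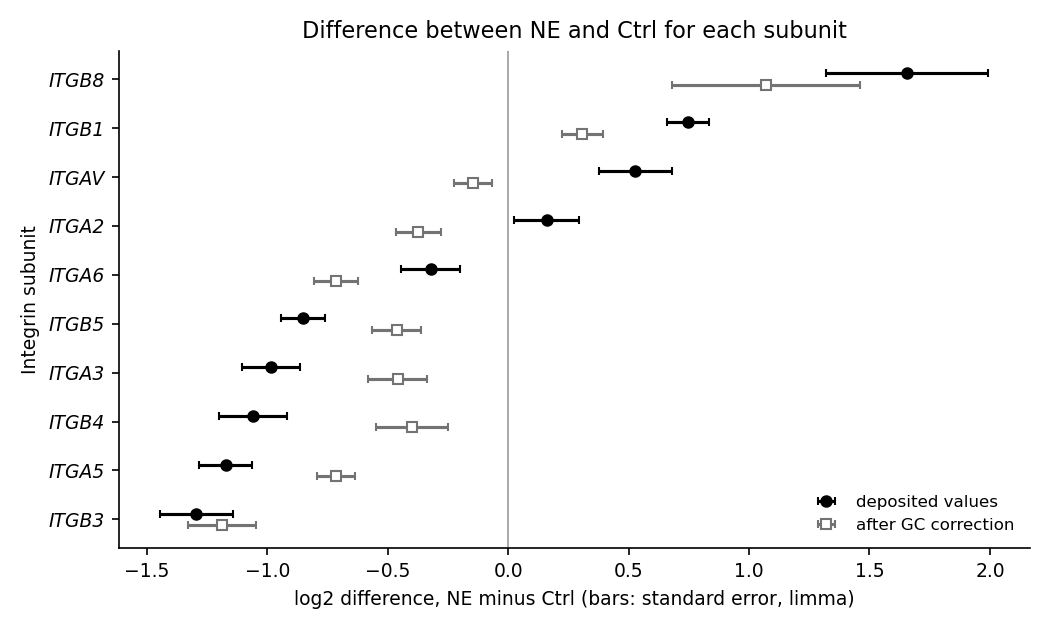
Log2 difference between NE and Ctrl (horizontal axis) for each subunit, ordered by size, from the deposited values (filled) and after GC correction (open), with standard errors from limma. ITGB3 hardly moves between the analyses (-1.29 and -1.19), whereas ITGAV and ITGA2 cross 0.

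The subunits with GC-poor and GC-rich exons had log2 differences that did not overlap. The 5 with exons of at most 42.5% GC (ITGAV, ITGB8, ITGA2, ITGB1 and ITGA6) had log2 differences of -0.32 to 1.66, and the 5 with at least 49.2% (ITGB3, ITGB5, ITGA5, ITGA3 and ITGB4) had -1.29 to -0.85. After GC correction 1 subunit was higher (ITGB1) and 6 were lower (ITGA2, ITGA3, ITGA5, ITGA6, ITGB3 and ITGB5), against 14.5% and 17.7% of the 14955 genes with a GC value. The median over the subunits was then -0.43, and -0.01 over all genes. ITGB1 rose and ITGA3, ITGA5, ITGB3 and ITGB5 fell both with and without the correction.

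**Figure D3:**
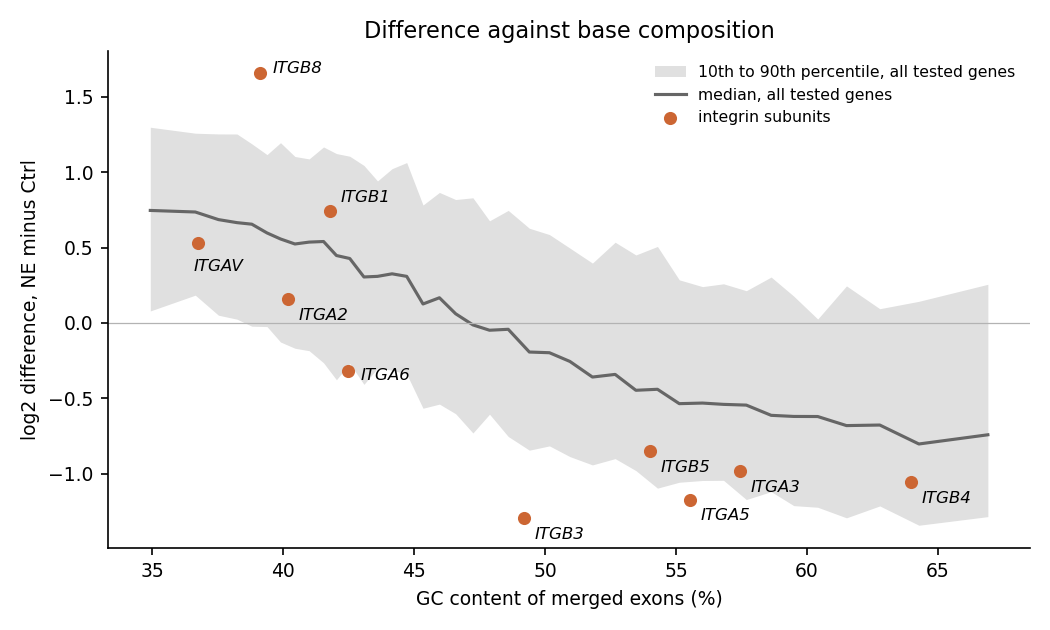
Log2 difference between NE and Ctrl against the GC content of merged exons (%), with the 10 subunits as points, the median of all tested genes as a line and their 10th to 90th percentile shaded. The line falls from low to high GC; ITGB8 lies above the shaded band, ITGB3 and ITGA5 lie below it and ITGA6 lies at its lower edge.

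Levels were compared between subunits as reads per kilobase of merged exons per 1000000 gene reads. In Ctrl the order was ITGA3 (188 ± 10.1, SD, n = 3), ITGB5 (67.4 ± 2.19), ITGA6 (49.6 ± 5.94), ITGB1 (32.4 ± 1.95), ITGA5 (32.0 ± 3.11), ITGB4 (26.0 ± 1.07), ITGA2 (12.8 ± 1.81), ITGAV (5.17 ± 1.25), ITGB3 (2.55 ± 0.0922) and ITGB8 (0.0600 ± 0.0142). ITGB1 and ITGA5 did not differ beyond their spread. In NE, ITGB1 (59.7 ± 2.54) came right after ITGA3 (105 ± 9.61), followed by ITGA6 (43.6 ± 3.36) and ITGB5 (41.0 ± 0.818), whose libraries overlapped. The next in NE were ITGA2 (15.7 ± 1.49), ITGA5 (15.6 ± 0.617) and ITGB4 (13.8 ± 2.07), which also overlapped, and then ITGAV (8.05 ± 0.308), ITGB3 (1.14 ± 0.0882) and ITGB8 (0.216 ± 0.0438). The order depends on the length used. Per kilobase of the longest transcript ITGB1 went from 84.0 to 155 and ITGB5 from 98.9 to 60.2.

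The alpha chains together had a lower level in every NE library than in any control, while the direction for the beta chains depended on the length used. The summed alpha level per length was 294, 284 and 284 in Ctrl and 203, 185 and 175 in NE, while the summed beta level was 126, 127 and 132 in Ctrl and 116, 116 and 115 in NE. The ratio of alpha to beta was 2.24 ± 0.0850 in Ctrl and 1.62 ± 0.118 in NE (SD, n = 3), and an exact two-sided permutation test gave p = 0.1, below which no comparison of 3 with 3 libraries can go. Per kilobase of the longest transcript the summed alpha level was again lower in NE, but the summed beta level was 211, 213 and 224 in Ctrl and 229, 234 and 235 in NE, and so higher in every NE library.

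Within the beta chains ITGB5 was the leading one in every control and ITGB1 in every NE library. ITGB1 made up 24.3%, 25.1% and 26.2% of the summed beta level in Ctrl and 48.9%, 52.2% and 53.4% in NE, a difference of 26.3 percentage points. ITGB5 made up 52.9%, 51.6% and 53.0% in Ctrl and 36.1%, 34.7% and 35.4% in NE. The mean share was 20.3% in Ctrl and 11.9% in NE for ITGB4, 1.99% and 0.985% for ITGB3, and 0.0469% and 0.186% for ITGB8. The sizes depend on the length used. Per kilobase of the longest transcript the mean shares in Ctrl and NE were 38.9% and 66.6% for ITGB1 and 45.8% and 25.9% for ITGB5. GC correction shrank the log2 differences behind these shares, from 0.75 to 0.31 for ITGB1 and from -0.85 to -0.46 for ITGB5.

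Within the alpha chains ITGA3 remained the leading one in all 6 libraries. Its mean share was 65.3% in Ctrl and 55.8% in NE, and that of ITGA5 was 11.1% and 8.34%. The shares of ITGA6 (17.3% and 23.2%), ITGA2 (4.46% and 8.35%) and ITGAV (1.80% and 4.31%) were higher in NE. The groups did not overlap for any of the 10 shares, each with the smallest p of the exact permutation test (0.1, adjusted 0.1 over the 10), which cannot pass 0.05. Shares of the same sum depend on each other, so the 10 are not separate results. GC correction turned the sign for ITGA3 (2.62 points) and ITGA6 (-2.61 points).

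**Figure D4:**
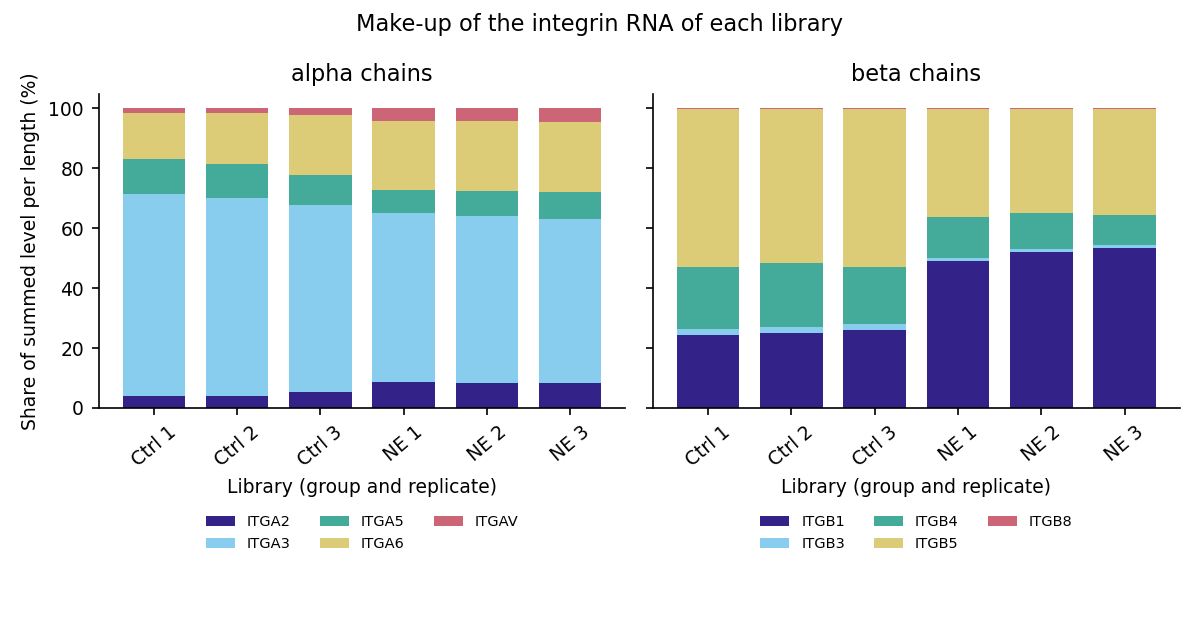
Share (%) of each subunit in the summed alpha (left) or beta (right) level per kilobase of merged exons in each of the 6 libraries. The ITGB1 segment is 24.3% to 26.2% in the Ctrl libraries and 48.9% to 53.4% in the NE libraries.

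Partners of 1 receptor were then compared within each library as a log2 ratio of their normalized counts. For ITGA2, ITGA3, ITGA5 and ITGA6 the ratio to ITGB1 was lower in every NE library than in any control. The ratio of ITGA5 to ITGB1 was -0.80, -0.95 and -1.25 in Ctrl and -2.88, -2.98 and -2.90 in NE, a difference of -1.92. That of ITGA3 to ITGB1 was 2.12, 1.99 and 1.79 in Ctrl and 0.44, 0.20 and 0.07 in NE, a difference of -1.73. The differences were -1.07 for ITGA6 and -0.59 for ITGA2. For ITGAV against ITGB1 the libraries overlapped (difference -0.22, exact permutation p = 0.3).

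The ratios of ITGAV to its other beta chains differed in sign. Against ITGB3 the log2 ratio was 2.21, 2.38 and 2.88 in Ctrl and 4.23, 4.33 and 4.37 in NE, and against ITGB5 it was -2.37, -2.28 and -1.83 in Ctrl and -0.77, -0.82 and -0.75 in NE. Both ratios were higher in every NE library, by 1.82 and 1.38. Against ITGB8 the difference was -1.13 (means of 6.70 in Ctrl and 5.57 in NE), with ITGB8 at under 20 counts in each control. ITGA6 against its hemidesmosome partner ITGB4 was 0.76, 0.80 and 1.16 in Ctrl and 1.55, 1.62 and 1.77 in NE, a difference of 0.74.

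The libraries of both groups were apart in 8 of the 9 pairs, each with an exact permutation p of 0.1 (0.1125 adjusted over the 9), which is the smallest possible. Most pairs share ITGB1 or ITGAV, so the 9 are not separate results. Among single genes, 4458 of 15013 were apart and higher in NE and 4342 apart and lower. How often ratios of other genes were apart was not tested. After GC correction the differences against ITGB1 were -1.02 for ITGA5, -0.77 for ITGA3, -1.02 for ITGA6, -0.68 for ITGA2 and -0.45 for ITGAV. They were 1.04 for ITGAV against ITGB3, 0.32 against ITGB5 and -1.22 against ITGB8, and the sign of ITGA6 against ITGB4 turned (-0.32).

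**Figure D5:**
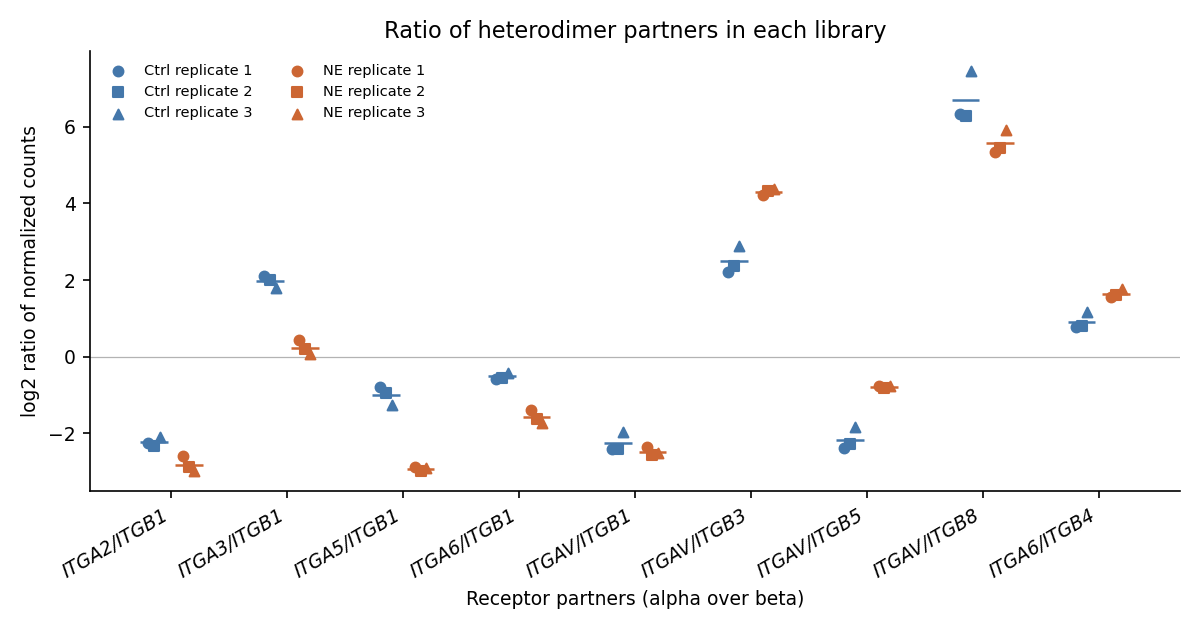
Log2 ratio of the normalized counts of alpha over beta partner in each library for 9 pairs known to form receptors, with 1 symbol per replicate and a bar at each group mean. The pairs of ITGA2, ITGA3, ITGA5 and ITGA6 with ITGB1 sit lower in NE, ITGAV with ITGB3 or ITGB5 sits higher, and ITGAV with ITGB1 overlaps.

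Of 17 other genes of the family, 15 were in the table and 9 were tested, with a median log2 difference of -0.13. Among the 9 was ITGBL1, which encodes a related secreted protein and no subunit (log2 difference -0.26, adjusted p 0.605, limma). It is included where the other subunits are counted. ITGA1, a collagen-binding partner of ITGB1, rose from 147, 151 and 268 counts in Ctrl to 599.8, 519 and 503 in NE. Its log2 difference of 1.57 (SE 0.23, adjusted p 0.000652, limma) was 0.91 after GC correction (adjusted p 0.00139). ITGA4, a fibronectin-binding chain of leukocytes, rose, at 512 to 659 counts in Ctrl and 703 to 908 in NE (log2 difference 0.51, adjusted p 0.0168), but was at -0.13 after GC correction, and 26.4% of its exon bases overlap CERKL on the other strand. ITGAE (-0.73, adjusted p 0.00833) and ITGAM (-0.80, adjusted p 0.0275), chains best known from lymphocytes and myeloid cells, fell at 31 to 258 counts, and neither passed after GC correction (-0.40, adjusted p 0.105, and -0.37, adjusted p 0.281). ITGB2, the leukocyte beta chain with which ITGAM pairs, was at 0 to 6.28 counts.

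Of 32 tested genes for proteins on the inner side of adhesions, 19 were lower and 2 higher, with a median log2 difference of -0.55, where 25.5% and 24.6% of all genes were lower and higher. PXN, the scaffold paxillin, fell by 1.70 on the log2 scale (7141 to 8914 counts in Ctrl and 2449 to 2577 in NE, adjusted p 2.02e-05, limma), and the paxillin relative TGFB1I1 by 1.49 (adjusted p 0.000307). ILK, integrin-linked kinase, fell by 1.71 (adjusted p 0.0197, and 0.0848 after GC correction), at under 42 counts in each library and with 68.1% of its exon bases overlapping TAF10 on the other strand. For PXN 23.7% overlap PXN-AS1. PPFIA1, liprin-alpha-1, rose by 0.62 (adjusted p 0.00118), and so did FERMT2, kindlin-2, by 0.44 (adjusted p 0.0354), which turned to -0.17 after GC correction. GC correction left 10 lower and 2 higher (17.7% and 14.5% of all genes). Without Ctrl replicate 3 there were 20 and 4, where 4894 and 4780 of all 15013 genes were lower and higher.

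Among 15 membrane proteins that associate with integrins, 11 fell and 1 rose (median -0.89), against 25.5% and 24.6% of all genes. The largest falls were in SDC1 (-1.42, adjusted p 5.82e-05, limma) and SDC4 (-1.22, adjusted p 0.000102), the syndecan co-receptors, and in PLAUR (-1.37, adjusted p 9.85e-05), the urokinase receptor. EGFR, the growth factor receptor, was the 1 that rose (0.41, adjusted p 0.0171). GC correction left 9 lower and 1 higher, against 17.7% and 14.5% of all genes.

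Of 7 tested hemidesmosome genes 5 fell and 1 rose, with a median of -1.24, against 25.5% and 24.6% of all genes. LAMB3 was at 4633 to 4909 counts in Ctrl and 1298 to 1626 in NE (log2 difference -1.68, adjusted p 2.33e-05, limma). It encodes a chain of laminin-332, the ligand of the ITGA3 and ITGA6 receptors, whose own chains ITGA3 and ITGB4 were lower as well. COL17A1, a transmembrane collagen of hemidesmosomes, fell by 1.66 (adjusted p 0.000216). DST, a plakin, rose by 0.60 (adjusted p 0.00170) and was at 0.04 after GC correction, under which 5 genes were lower (17.7% of all genes).

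Of 24 tested matrix ligand genes 9 were higher and 9 lower (median 0.27), against 24.6% and 25.5% of all genes. After GC correction 6 were higher and 4 lower, against 14.5% and 17.7%. LAMA4, a laminin chain of vessel walls, rose by 1.85 (adjusted p 0.00111, limma), NPNT, the ligand of the ITGA8 receptor, by 1.61 (adjusted p 0.0106, and 0.0608 after GC correction) and TGFB3 by 1.15 (adjusted p 0.0276), all at 7.84 to 152 counts. COL1A1 fell by 1.26 (adjusted p 0.0251) at under 28 counts and was at -0.68 (adjusted p 0.225) after GC correction, and LAMB3, described above, is also on this list. The fibronectin gene FN1, named here because it encodes the ligand of the ITGA5 receptor, rose as well, at 1427 to 1500.3 counts in Ctrl and 2340.2 to 2732 in NE (0.77, adjusted p 0.000458).

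Of 13 tested genes that move integrins through endosomes, 3 rose and 3 fell (median 0.07), shares near the 24.6% and 25.5% of all genes. GC correction left 1 higher and 5 lower, against 14.5% and 17.7%. RAB5A, a GTPase of early endosomes, rose by 0.72 (adjusted p 0.000949, limma, but 0.28 with an adjusted p of 0.138 after GC correction), CLTC, the clathrin heavy chain, by 0.54 (adjusted p 0.0222, -0.01 after GC correction) and RAB11FIP1, a recycling adaptor, by 0.53 (adjusted p 0.0492). SNX17, which binds beta tails and returns integrins to the surface, fell by 1.08 (adjusted p 0.000133), AP2A1, an adaptor of clathrin coats, by 0.69 (adjusted p 0.000996, but -0.13 with an adjusted p of 0.356 after GC correction) and HAX1 by 0.70 (adjusted p 0.00164).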

How the data were processed

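RNA of 6 NCI-H1299 libraries was sequenced from kits that do not mark strand. Per the submitters' processing notes, reads were aligned to hg38 with HISAT2 2.0.5 and counted per gene with featureCounts 1.5.0-p3; the strand setting was not given in the sources used here. The deposited signal values are gene counts that the authors divided by 1 size factor per library, not FPKM as the table is named: in each library 100% of values were whole reads (tolerance 0.05), with size factors of 0.955 to 1.09. Values are called normalized counts.

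Differences were tested with limma 3.58.1 (R 4.3.3, trend) on log2(value + 1) for 15013 genes whose mean was 10 or more, with Benjamini-Hochberg adjustment; fold changes are on this scale and understate those of scarce genes. The GC correction removed each library's natural spline (5 degrees of freedom) on the GC content of merged exons (GENCODE v44, hg38, 25813 of 26025 identifiers matched). Ratios and shares were tested by exact permutation.

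The members and lists were chosen with earlier results of these data known. Named were all 10 subunits, other subunits past an adjusted p of 0.05, and of each list up to 3 rises and 3 falls that were largest past it; FN1 and marker genes were named besides, and some items that this rule covers are not reported here. Alternatives were pseudocounts of 0.1 and 5, other filters, TMM and quantile scaling, edgeR 4.0.16, DESeq2 1.42.0, the GC correction, the replicate block and leaving out each library. Promoters came from RefSeq, and no protein sequences were used here.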

Additional observations from a re-analysis of the deposited data

How the results depend on the processing

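ITGA3, ITGA5, ITGB3 and ITGB5 kept their direction and their call in all 17 alternatives each, and ITGB1 in 16 of 17. GC correction left 1 of the 10 subunits higher, 1 of the other subunits higher and 0 lower, and 10 genes higher over the adhesion, trafficking and matrix lists together (16 in the main analysis, where 44 were lower). With GC correction and the replicate block together these were 0 (ITGB1 was then at an adjusted p of 0.0604), 1, 0 and 9, with 27 list genes lower. Of all 14955 genes with a GC value, the correction alone called 2174 higher and 2641 lower, and with the block 1601 and 2003. At an unadjusted p under 0.05, limma gave 2 subunits higher in that last analysis and 1 other subunit lower in either, where edgeR and DESeq2 without GC correction each called 3 subunits higher and 2 other subunits lower. Of all 15013 genes, edgeR called 3577 higher and 3971 lower at an adjusted p under 0.05, and DESeq2 3725 and 3984. The fold change of at least 2 left 1 subunit higher and 3 lower, 1 other subunit higher and, as ITGAE and ITGAM differed by less, 0 lower, and 3 list genes higher and 20 lower. Of all genes 7.47% and 6.55% were higher and lower at that fold change. Without a filter 1 other subunit was lower, as were 3583 of all 26025 genes.

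GC correction, with or without the block, reversed ITGA2 (-0.37), ITGAV (-0.15), ITGA4 (-0.13), FERMT2 (-0.17) and CLTC (-0.0081), and without the block it reversed the ratio of ITGA6 to ITGB4 (-0.32) and the share differences of ITGA3 (2.62 points) and ITGA6 (-2.61 points). This alternative removes each library's GC trend by construction.

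Deviations of same-numbered libraries from their group means correlated at -0.163, 0.0799 and -0.151. With 3 libraries per group these deviations depend on each other, so the correlations cannot decide whether the replicate numbers pair the libraries. The replicate block gave 3150 genes higher and 3358 lower, the same 3 and 5 counts for the subunits, and 1 other subunit higher.

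With 1 library left out the subunits ranged from 2 to 4 higher and 5 to 6 lower, the other subunits from 1 to 2 in each direction, and the list genes from 10 higher (without NE replicate 2) to 24 (without Ctrl replicate 3) and 38 to 46 lower. Over all 15013 genes the calls in these fits ranged from 2715 to 4780 higher and 2958 to 4894 lower, with most calls without Ctrl replicate 3. Of the 27 named genes outside the 10 subunits, 17 kept their call in all 6 such fits. The other 10 lost it at adjusted p of 0.0512 to 0.152: ITGA4, EGFR, CLTC, RAB11FIP1 and COL1A1 without Ctrl replicate 1 or 2 or NE replicate 1 or 2, ITGAM without Ctrl replicate 1 or 2 or NE replicate 1 or 3, FERMT2 without any but Ctrl replicate 3, ILK without Ctrl replicate 1 or NE replicate 1 or 3, TGFB3 without any 1 of the NE libraries and NPNT without NE replicate 2. ITGB8 was under the filter at a mean of at least 50. The median of all genes moved to 0.12 without a filter. At 12 to 66 counts ITGB8 is the subunit whose precision depth limits most.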
